A study of Mus musculus with 2 samples.

Results

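The deposited PHF19 peaks at the LIM homeobox genes Lhx1 and Lhx2 are described here. The members are all peaks that overlap a window of 200 kb around either gene, chr11:84250000-84450000 for Lhx1 and chr2:38080000-38280000 for Lhx2, in the mm8 build. The rule found 6 peaks of 3445 in the deposited list, 2 in the Lhx1 window and 4 in the Lhx2 window. The gene names came with the windows. Gene models of mm8 were not used here, and no peak was placed in an exon, an intron or a start site.

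The study mapped the DNA bound by PHF19 in pluripotent mouse cells of the E14 embryonic stem cell line, grown on gelatin with the cytokine LIF. It held 1 library of DNA recovered with a custom rabbit polyclonal antibody against PHF19 (ChIP) and 1 library of input DNA, for which the labels give no antibody. The labels name no treatment, genotype or time point for either. With 1 library in each group no value has a replicate error, and neither library checks what the antibody recovers. Peaks were chosen by the authors on the same ChIP reads that are counted here, and the windows were chosen for their strong peaks. Enrichment at the members is therefore described, with no test.

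PHF19 is a Polycomb-like protein that binds histone H3 methylated at lysine 36 through its Tudor domain and associates with PRC2, the complex that methylates histone H3 at lysine 27. In embryonic stem cells PRC2 is known for occupying CpG-rich promoters of developmental regulators that are silent in these cells, and Polycomb-like proteins bind DNA at unmethylated CpG sites. Lhx1 and Lhx2 encode LIM homeodomain transcription factors, which pair LIM domains for protein contacts with a homeodomain that binds DNA, and which act together with the cofactor LDB1. Lhx1 is required for head formation and for kidney development, and Lhx2 for the eye and forebrain and for hair follicle stem cells.

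The 250 bases before each listed start of both genes are shown because CpG content is a sequence feature that the choice of peaks did not use. They are from RefSeq (GRCm38.p6), 5′ to 3′ on the strand of the gene, with every CG in capitals. This build differs from mm8, so where these bases lie relative to the peaks was not determined. Lhx1 lies on the minus strand and has 1 listed start. Lhx2 lies on the plus strand and has 2.
Lhx1: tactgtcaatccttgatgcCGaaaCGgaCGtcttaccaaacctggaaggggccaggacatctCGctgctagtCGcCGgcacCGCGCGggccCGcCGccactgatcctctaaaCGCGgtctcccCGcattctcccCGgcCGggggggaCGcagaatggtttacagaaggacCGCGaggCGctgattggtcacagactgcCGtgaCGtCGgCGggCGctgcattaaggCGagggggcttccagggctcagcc
Lhx2, listed start 1: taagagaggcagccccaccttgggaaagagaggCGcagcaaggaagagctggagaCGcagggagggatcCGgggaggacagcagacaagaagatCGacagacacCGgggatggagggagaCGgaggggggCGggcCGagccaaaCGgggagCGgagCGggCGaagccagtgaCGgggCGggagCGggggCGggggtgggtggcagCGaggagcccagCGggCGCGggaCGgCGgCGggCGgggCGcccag
Lhx2, listed start 2: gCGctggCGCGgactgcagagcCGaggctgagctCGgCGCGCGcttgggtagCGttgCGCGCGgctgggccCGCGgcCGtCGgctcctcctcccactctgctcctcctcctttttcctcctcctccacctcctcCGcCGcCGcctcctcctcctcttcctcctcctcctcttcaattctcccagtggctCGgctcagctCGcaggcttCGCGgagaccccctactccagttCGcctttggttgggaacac

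All 3 stretches were rich in CG, which reads the same on both strands. The Lhx1 stretch held 26 CG at 64.8% G and C, and 9.59% of 32841 promoter stretches of the same length held at least as many. The stretches of Lhx2 held 25 CG at 72.8% G and C and 24 CG at 68.4%, reached by 10.7% and 12.0% of promoter stretches. The median over all stretches was 6 CG. Of 12 LIM homeobox genes looked up (Lhx1 to Lhx6, Lhx8, Lhx9, Isl1, Isl2, Lmx1a and Lmx1b), 11 matched with 15 stretches, which held 4 to 33 CG. Isl1, a regulator of motor neurons and heart progenitors, had the 33, and Lhx8 and Lhx9 had stretches with 4. These counts describe sequence and say nothing of binding. In the same gene table, Aatf and the non-coding RNA gene Lhx1os are the genes listed next to Lhx1, and the non-coding RNA genes Gm46736 and Gm27197 those next to Lhx2.

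Each gene's window held 1 broad peak with smaller peaks beside it. Counts are of distinct reads, 1 read per position and strand, from 21957101 such reads in the ChIP and 24496988 in the input library. Fold is the share of ChIP reads divided by the share of input reads. Intervals in brackets are exact 95% intervals, and they cover counting error only, because amplified reads are not independent molecules and no library was repeated.

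The broad peak at Lhx1, chr11:84335008-84344335, was 9328 bp wide. It held 541 ChIP reads and 137 input reads, a fold of 4.41 (3.65 to 5.35). The broad peak at Lhx2, chr2:38167818-38180085, was 12268 bp wide and held 636 ChIP reads and 177 input reads, a fold of 4.01 (3.39 to 4.76). As deposited, the Lhx2 peak was thus the wider. Extents by unbroken bins of 500 bp with a fold of at least 2 were closer. Such a run covered 13.0 kb at Lhx1 (fold 4.24, 3.58 to 5.05) and took in the smaller peak beside the broad one. At Lhx2 it covered 12.5 kb, in the broad peak only (fold 4.08, 3.45 to 4.86). The Lhx1 peak was the slightly denser one in the ChIP, at 58.0 against 51.8 reads per kb. That ratio of densities was 1.12, and its interval of 0.996 to 1.26 included 1. The input was level between the loci, with 14.7 reads per kb at Lhx1 and 14.4 at Lhx2 (ratio 1.02, 0.808 to 1.28). The ratio of the folds, Lhx1 over Lhx2, was 1.10 (0.849 to 1.42), so a difference in height between both broad peaks was not detectable at this depth. The order of the folds was not stable between strands: the ratio was 1.36 (0.942 to 1.98) with plus-strand reads only and 0.874 (0.600 to 1.27) with minus-strand reads only.

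**Figure D1:**
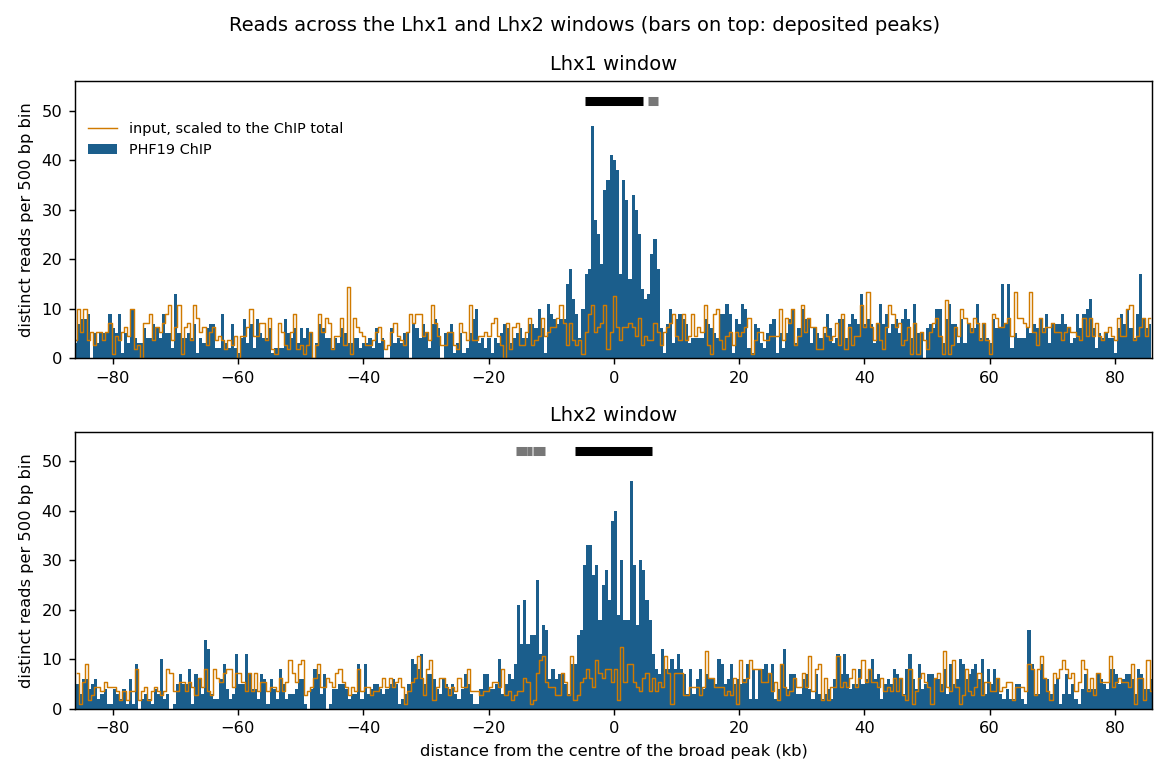
Distinct reads per 500 bp bin (y axis) against distance from the centre of the broad peak in kb (x axis) in the Lhx1 (top) and Lhx2 (bottom) windows. Blue bars are the PHF19 ChIP, the orange line is the input scaled to the ChIP total, and bars on top are the deposited peaks (black, broad; grey, smaller). ChIP reads stand above the input over the broad peaks, to at most 47 reads per bin at Lhx1 and 46 at Lhx2, and elsewhere run near the input, at a median of 6 and 5 reads per bin.

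The smaller peaks lay on opposite sides of the broad ones in genome coordinates, by which edges and flanks below are also given. Lhx1 is listed on the minus and Lhx2 on the plus strand. If mm8 orients them likewise, the smaller peaks lie on the same side relative to gene direction. At Lhx1 there was 1, at chr11:84345128-84346656, only 792 bp beyond the broad peak towards higher coordinates. It was 1529 bp wide and held 64 ChIP and 16 input reads, giving a fold of 4.46 (2.55 to 8.27), close to that of the broad peak beside it. The 792 bp between them held 16 ChIP and 9 input reads, giving a fold of 1.98 (0.825 to 5.09).

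At Lhx2 the smaller peaks numbered 3 and lay together over 4553 bp, towards lower coordinates and 4910 bp from the broad peak. The first, chr2:38158355-38160080, held 61 ChIP and 15 input reads, giving a fold of 4.54 (2.55 to 8.60). The next, chr2:38160175-38160858, held 22 ChIP and 4 input reads, a ratio of 6.14 with a wide interval of 2.08 to 24.5. The one nearest to the broad peak, chr2:38160982-38162907, held 67 ChIP and 32 input reads, giving a fold of 2.34 (1.51 to 3.68), the lowest of the 6 members. Its input density was 1.85 times the chromosome median, against 0.966 and 0.650 times in the other two, and whether this bears on its low fold was not tested. Gaps of 94 and 123 bp separated these peaks. The 4910 bp up to the broad peak held 72 ChIP and 52 input reads, giving a fold of 1.54 (1.07 to 2.25). From first to last peak the Lhx2 group spanned 21731 bp at a fold of 3.39 (2.96 to 3.90), and the Lhx1 group 11649 bp at 4.28 (3.59 to 5.12). The Lhx2 span takes in the gap of 4910 bp.

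A region was called where its fold was at least 2, both libraries together gave at least 5 reads, and the interval lay above 1, with a bin of no input reads taken as past the fold. By this rule 6 of 6 members were called, where 98.5% of all deposited peaks were. At a fold of at least 4, 5 of 6 were called, against 40.6% of all peaks. Since the peaks were chosen on these reads, nothing is read from either count. By the authors' score, taken here only as an order of peaks in their list, the broad peaks stood at 9 (Lhx1, score 1657.69) and 15 (Lhx2, 1545.81) of 3445, and the smaller ones between 1371 and 3009. In width the broad peaks stood at 15 (Lhx1) and 5 (Lhx2). The lowest score in the list was 50.01, and the member nearest to it, the narrow Lhx2 peak of 684 bp, had 57.56.

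No further peak lay close outside the windows. The nearest deposited peaks around the Lhx1 window were 580 kb before it (fold 4.87) and 147 kb after it (fold 5.39). Around the Lhx2 window they were 464 kb before it (fold 2.83) and 252 kb after it (fold 6.09). The member peaks thus formed a compact group at each gene, within 12 kb (Lhx1) and 22 kb (Lhx2) of sequence.

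Inside both broad peaks the ChIP signal was spread over the whole width rather than drawn to a single summit. At Lhx1 the 19 bins of 500 bp that touched the broad peak held 14 to 47 ChIP reads each (median 30) and 2 to 14 input reads (median 7). At Lhx2 the 26 bins held 9 to 46 ChIP reads (median 26) and 2 to 14 input reads (median 7). Of these bins, 17 of 19 were called at Lhx1 and 24 of 26 at Lhx2, where 1.91% of 4336293 bins of the genome with at least 5 reads were. The bins were taken from peaks called on the same reads, so nothing is read from this excess. At a fold of at least 4, 11 and 14 of these bins were called, against 1.64% of the genome's bins.

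At both genes the 3 bins with the most excess reads (ChIP minus input scaled to the ChIP total) were a neighbouring pair at the centre and a single bin apart from it. This layout rests on naming 3 bins. The third and the next bin had an excess of 34.2 and 31.7 reads at Lhx1, and 31.9 and 26.7 at Lhx2. At Lhx1, the bin at chr11:84336001-84336500 held 47 ChIP and 12 input reads, giving a fold of 4.37 (2.28 to 9.05), and lay near the lower edge, 1.24 kb from the start of the peak. The other two were neighbours at the centre. The bin at chr11:84338501-84339000 held 36 ChIP but only 2 input reads, a ratio of 20.1 (5.17 to 172), and that at chr11:84339001-84339500 held 41 and 6, a fold of 7.62 (3.22 to 22.0). At Lhx2, the bin with the largest excess, chr2:38176501-38177000, held 46 ChIP and 10 input reads, giving a fold of 5.13 (2.55 to 11.4), and lay 2.80 kb beyond the centre of the peak. The other two, chr2:38173501-38174000 and chr2:38174001-38174500, lay at the centre, with 38 against 6 reads (7.07, 2.96 to 20.5) and 40 against 9 (4.96, 2.37 to 11.6).

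The signal also dipped inside both peaks. Between the outermost called bins of the Lhx1 peak, the bin with the smallest excess, chr11:84342001-84342500, held 16 ChIP and 8 input reads, giving a fold of 2.23 (0.901 to 6.02). Between those of the Lhx2 peak it was chr2:38176001-38176500, which held 18 ChIP and 10 input reads, giving a fold of 2.01 (0.879 to 4.87), and directly adjoins the bin with the largest excess. At the upper edge of the Lhx2 peak, outside these limits, the bin at chr2:38180001-38180500 was lower still, at a fold of 1.75 from 11 ChIP against 7 input reads. The intervals of single bins are wide, and those of the low bins between called ones overlapped the intervals of the high bins.

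**Figure D2:**
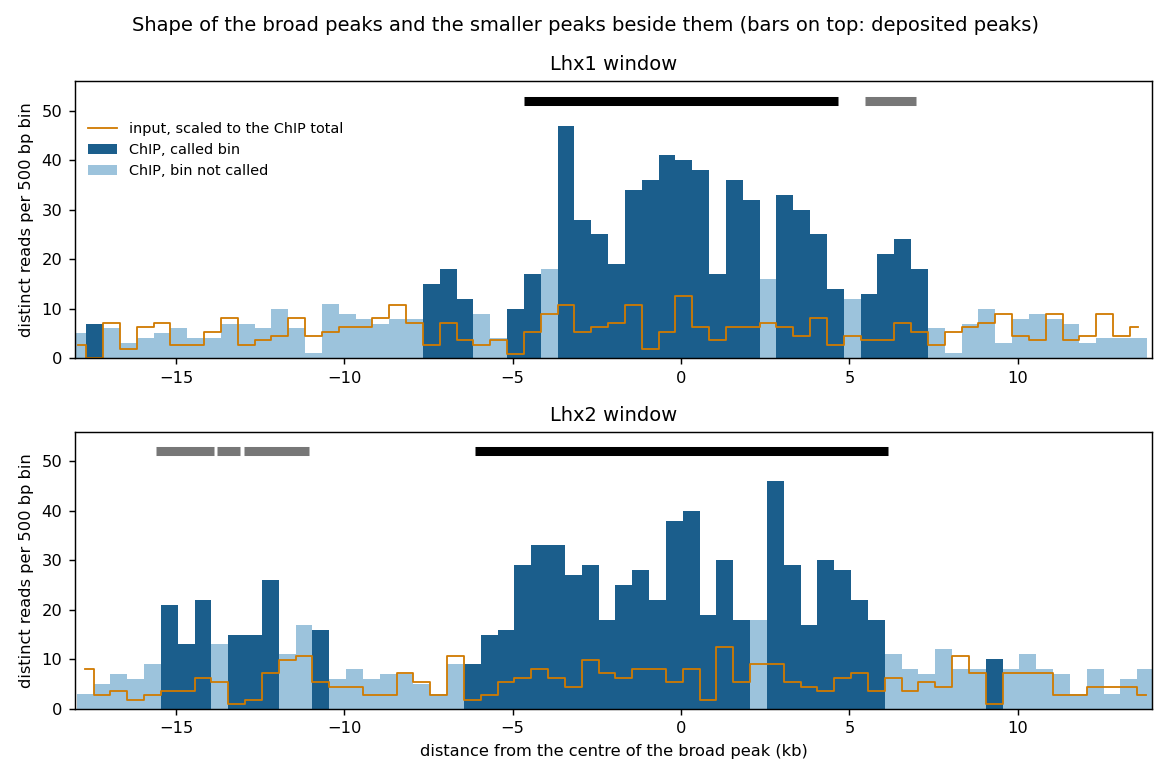
Distinct reads per 500 bp bin (y axis) within 18 kb before and 14 kb after the centre of each broad peak (x axis, kb). Dark bars are ChIP bins that were called, pale bars ChIP bins that were not, the orange line the input scaled to the ChIP total, and bars on top the deposited peaks. The ChIP signal is spread over each broad peak and higher in the middle at Lhx1. By rising coordinate, smaller peaks lie after the broad peak at Lhx1 and before it at Lhx2, genes listed on opposite strands.

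Each broad peak was also cut into 5 equal parts, numbered by rising coordinate, to set their profiles side by side. At Lhx1 the parts held 57.3, 48.3, 78.8, 52.5 and 53.1 ChIP reads per kb. The middle part was the highest, and its interval (66.6 to 92.6) did not overlap those of parts 2, 4 and 5 (at most 64.6). Its fold of 5.47 (3.67 to 8.39) was also the largest, but all 5 intervals of the fold overlapped, from 3.35 (2.19 to 5.24) in part 2 upwards. At Lhx2 the parts held 50.9, 50.1, 57.0, 55.0 and 46.0 ChIP reads per kb, and all 5 intervals overlapped. Their folds lay between 3.35 (2.37 to 4.80) in part 4, where the input was highest at 18.3 reads per kb, and 4.59 (3.14 to 6.89) in part 3. The highest part held 1.63 times the ChIP reads of the lowest at Lhx1 and 1.24 times at Lhx2. Both peaks were even from side to side, with 50.2% of the excess reads in the lower-coordinate side at Lhx1 and 49.5% at Lhx2.

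**Figure D3:**
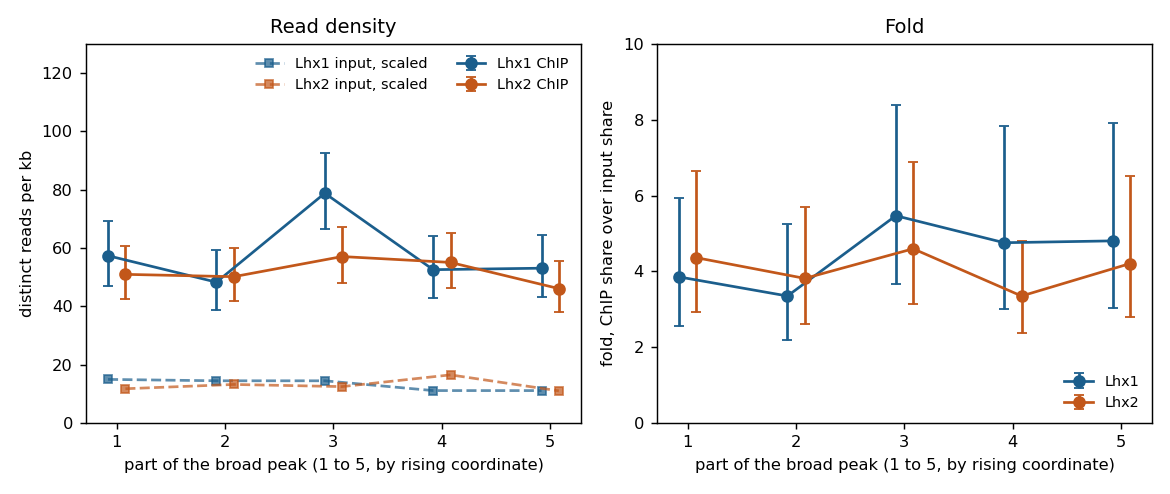
ChIP reads per kb and scaled input reads per kb (left, y axis) and fold (right, y axis) in 5 equal parts of each broad peak (x axis); error bars are exact 95% counting intervals. The Lhx1 density peaks in part 3 at 78.8 reads per kb, while the Lhx2 density stays between 46.0 and 57.0.

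Extent was compared by the shortest stretch of bins that held 50% of the excess reads of a broad peak. This stretch was 4.0 kb at Lhx1 and 5.5 kb at Lhx2, and the shortest with 80% was 7.0 and 9.5 kb. For comparison, 70 deposited peaks were at least 5 kb wide with an input density below 2 times the chromosome median, both broad peaks included. The other 12 of 82 such wide peaks had raised input and were left out. Among the 70, Lhx2 had the widest peak and Lhx1 stood at 9. In the whole deposited list they stood at 5 and 15 in width. All peaks wider than that of Lhx2 were thus among those left out for raised input. Their 50% stretches were longer than the median of 3.0 kb, with 6 of the 70 longer than at Lhx1 and 0 longer than at Lhx2. The peak at chr5:28788473-28799051 equalled Lhx2 at 5.5 kb. As a share of their own width, however, the stretches were 42.1% and 42.3%, against a median of 41.7%. The highest bin held 8.62% (Lhx1) and 7.62% (Lhx2) of the excess, where the median was 13.3% and only 1 peak, Lhx2, was below Lhx1. Wider peaks have more bins, so this share falls with width.

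Neither broad peak was among the highest in fold. Of the 70 wide peaks, 47 had a larger fold than Lhx1 and 59 a larger fold than Lhx2, and the median was 4.75. In ChIP reads per kb Lhx1 stood at 9 (58.0) and Lhx2 at 35 (51.8), beside a median of 51.8. The input of the Lhx2 peak was 1.60 times the chromosome median, which 7 of the 70 exceeded. At Lhx1 it was 1.34 times, against a median of 1.33. The part of the input in the fold of Lhx2 was not tested. The input is a library that the choice of members may not have used, but its use as control in peak calling is not stated in the sources used here.

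**Figure D4:**
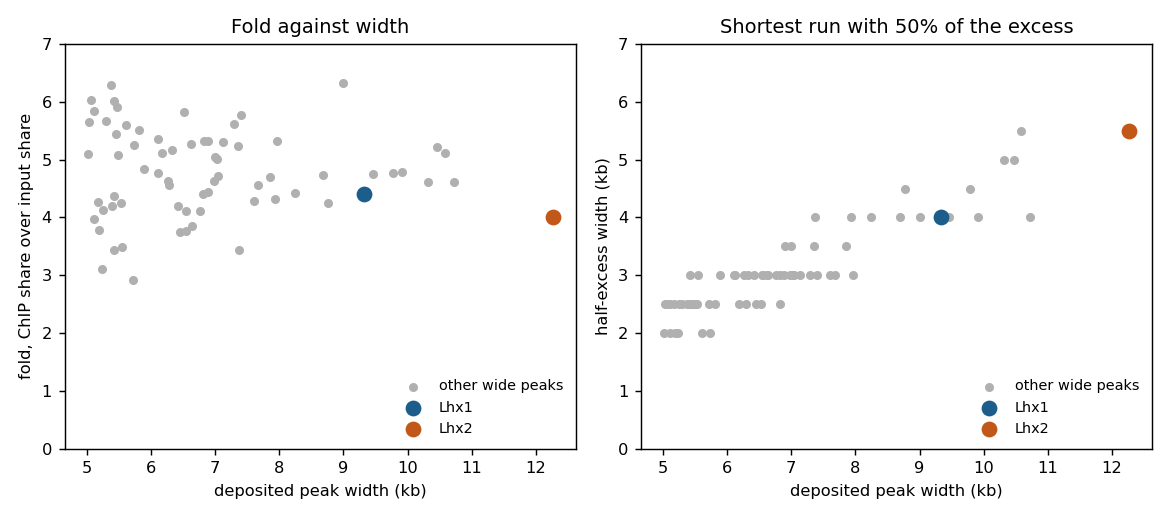
Fold (left, y axis) and shortest stretch with 50% of the excess reads in kb (right, y axis) against deposited peak width in kb (x axis) for 70 wide peaks; grey points are the other 68. Lhx1 and Lhx2 lie at folds of 4.41 and 4.01, below the median of 4.75, and at stretches of 4.0 and 5.5 kb.

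The edges of the broad peaks differed between the genes. At Lhx1 the ChIP fell from 109 reads in the first 2 kb inside the lower edge to 36 in the 2 kb before it, and at the upper edge from 101 to 72, where the smaller peak begins. At Lhx2 it fell from 87 to 21 at the lower edge and from 94 to 36 at the upper edge. The input in the same places held 33 and 13 and then 26 and 20 reads at Lhx1, and 22 and 21 and then 26 and 25 at Lhx2. Inside over outside, the ChIP ratios were 3.03 and 1.40 at Lhx1 and 4.14 and 2.61 at Lhx2, beside medians of 2.38 and 2.18 for the wide peaks. These ratios take no account of the input. At the lower edge it also fell at Lhx1, from 33 to 13 reads, but was level at Lhx2, with 22 and 21. Of the 70, 5 had a larger ChIP ratio at the lower edge than Lhx2. The edges were placed by the peak caller on these reads, so the ratios are descriptions.

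Next to the edges, bins that touched no peak were compared. Within 2 kb of the broad peak these bins held 47 ChIP and 17 input reads at Lhx1, a fold of 3.08 (1.74 to 5.73). At Lhx2 they held 59 ChIP and 56 input reads, giving a fold of 1.18 (0.801 to 1.73). The ratio of these folds, Lhx1 over Lhx2, was 2.61 (1.29 to 5.45), the only one of 6 distance bands whose interval left out 1. It rests on 5 bins at Lhx1 and 8 at Lhx2, since the smaller peak takes up most of the upper side at Lhx1. Of 64 other wide peaks with such bins, 4 had a larger fold than Lhx1 and 59 a larger fold than Lhx2.

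At 2 to 5 kb the order turned, with 91 ChIP and 81 input reads at Lhx1 (fold 1.25, 0.919 to 1.71) and 95 and 58 at Lhx2 (1.83, 1.30 to 2.58). The ratio of these was 0.687 (0.430 to 1.09). Over the whole 5 kb the folds were close, 1.57 (1.20 to 2.06) at Lhx1 and 1.51 (1.18 to 1.94) at Lhx2, beside a median of 1.51 for the other wide peaks. The Lhx2 value depended on the strand: it was 1.07 (0.750 to 1.51) with plus-strand reads only and 2.20 (1.52 to 3.23) with minus-strand reads only. At Lhx1 both strands gave similar values, 1.499 and 1.66.

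A shoulder that the deposited list does not hold was seen before the Lhx1 peak, and was singled out after its values were seen. At chr11:84332001-84334000, 4 bins in a row had a fold of at least 2, with 54 ChIP and 18 input reads together, a fold of 3.35 (1.93 to 6.06). Of these bins 3 were called, among them chr11:84332501-84333000 with 18 ChIP and 8 input reads (2.51, 1.04 to 6.67) and chr11:84332001-84332500 with 15 against 3 (ratio 5.58, 1.58 to 30.1). The reads of the shoulder are also part of the flank counts within 5 kb above. Shorter runs of 3 bins with a fold of at least 2 lay outside peaks at chr11:84356501-84358000 (2.94, 1.43 to 6.53) and chr11:84289501-84291000 (2.55, 0.993 to 7.33). At Lhx2 a run of 9 such bins at chr2:38157501-38162000 overlapped the smaller peaks, with 140 ChIP and 37 input reads, giving a fold of 4.22 (2.92 to 6.24). Of its bins 8 touched a peak. It ended inside the last smaller peak, whose remaining bins had folds of 1.12 (0.439 to 2.84) and 1.58 (0.711 to 3.63).

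Further out the folds of both sides together lay closer to 1 at both genes. At 5 to 10 kb the fold was 1.11 (0.856 to 1.43) at Lhx1 and 1.15 (0.795 to 1.67) at Lhx2, and at 10 to 20 kb 1.09 (0.901 to 1.33) and 1.11 (0.917 to 1.34). At 50 to 80 kb it was 0.988 (0.891 to 1.10) and 0.937 (0.837 to 1.05). The sides differed at Lhx1. At 10 to 20 kb the fold was 0.877 (0.655 to 1.17) towards lower coordinates and 1.33 (1.02 to 1.75) towards higher ones. At 20 to 50 kb, towards lower coordinates 238 ChIP and 322 input reads gave 0.825 (0.694 to 0.978), and towards higher coordinates 400 and 367 gave 1.22 (1.05 to 1.40). At Lhx2 the sides gave 1.03 (0.763 to 1.38) and 1.18 (0.914 to 1.52) at 10 to 20 kb, and 0.875 (0.746 to 1.03) and 1.13 (0.978 to 1.32) at 20 to 50 kb. Of 68 other wide peaks, 67 had a larger fold than Lhx1 and 65 a larger fold than Lhx2 at 20 to 50 kb towards lower coordinates. Towards higher coordinates these numbers were 12 and 24.

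**Figure D5:**
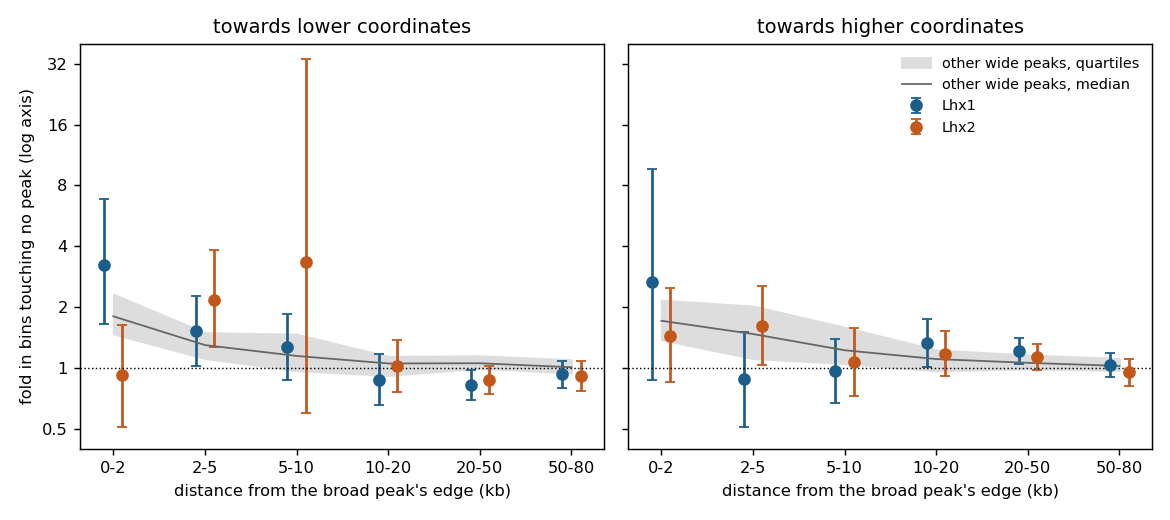
Fold in bins touching no peak (y axis, log scale) by distance from the edge of the broad peak in kb (x axis), towards lower (left) and higher (right) coordinates. Points are Lhx1 and Lhx2 with exact 95% counting intervals, the grey band and line the quartiles and median of the other wide peaks. At 20 to 50 kb the Lhx1 fold is 1.22 towards higher and 0.825 towards lower coordinates, and at 50 to 80 kb all 4 intervals include 1.

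Over whole windows, 31 of 380 bins with at least 5 reads were called at Lhx1 and 37 of 384 at Lhx2, most of them in peaks. Outside peaks 10 of 357 bins (2.80%) were called at Lhx1 and 7 of 348 (2.01%) at Lhx2, where 1.68% of such bins of the genome were. At Lhx1, 3 of the 10 belonged to the shoulder. The others with the most ChIP reads were isolated: chr11:84423501-84424000 at Lhx1 (17 ChIP and 7 input reads, 2.71, 1.07 to 7.73), and chr2:38264001-38264500 (14 and 3, ratio 5.21, 1.45 to 28.3) and chr2:38109001-38109500 (12 and 4, 3.35, 1.01 to 14.2) at Lhx2. The bin at chr2:38163001-38163500, with 16 ChIP and 6 input reads (2.98, 1.11 to 9.28), directly followed a smaller Lhx2 peak. Most reads in excess of the input in bins touching peaks were in the broad one, 88.2% at Lhx1 and 81.5% at Lhx2. These shares leave out the excess outside peaks. Of 629 excess reads in the whole Lhx1 window, 421 were in the broad peak and 153 outside peaks. Of 653 in the Lhx2 window, 486 were in the broad peak and 56.7 outside peaks. All bins outside peaks together had a fold of 1.08 (1.01 to 1.14) at Lhx1 and 1.03 (0.968 to 1.10) at Lhx2.

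Strand balance was similar in the ChIP reads of both broad peaks, with 49.0% on the plus strand at Lhx1 (44.7 to 53.3, exact binomial interval) and 50.3% at Lhx2 (46.4 to 54.3). The input held 57.6% on the plus strand at Lhx2 (49.99 to 65.0) and 45.3% at Lhx1 (36.7 to 54.0). Over whole libraries 54.7% of ChIP and 53.8% of input reads were on the plus strand. Both ChIP intervals lay below the share of their library, and both input intervals included that of theirs. The fold of the Lhx2 peak was 3.44 (2.75 to 4.35) on the plus and 4.79 (3.71 to 6.25) on the minus strand. At Lhx1 it was 4.69 (3.55 to 6.29) and 4.19 (3.23 to 5.48). Reads removed as repeats of a position and strand made up 5.42% of ChIP and 3.52% of input reads in the Lhx1 peak, and 4.36% and 2.21% in the Lhx2 peak, below the 8.38% and 7.33% of the whole libraries.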

How the data were processed

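The authors deposited the aligned reads of both libraries, mm8 positions made with Bowtie per the submitters' processing notes (version not given in the sources used here), and 1 peak list with the authors' score per peak, from MACS per the file headers. The sources used here state neither the caller's settings nor what was done with reads that matched several places. Per the labels' protocols, amplification was by PCR with gel size selection. Reads (42 bases) at the same 5′ end and strand were counted once. From 23965625 aligned reads in the ChIP library this took out 8.38%, and from 26433784 in the input 7.33%. The strand lag of the ChIP, 41 bp, was near the read length, so 5′ ends of both libraries were moved inwards by 54 bp, 0.5 of the input's lag of 108 bp.

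Intervals of folds are exact conditional binomial, those of densities exact Poisson, and those of fold ratios exact conditional odds ratios. No p-value was computed. All members are named, with the bins of largest and smallest excess and, outside peaks, the called bins richest in ChIP reads. Members, windows and lists were chosen with earlier results of these data known. Counting of the LIM homeobox family by peaks near starts was planned only for an mm8 annotation and was not run. The bin rule was also run on simulated bins with independent counting error only. That run cannot show how the rule fares with other errors of real reads, and nothing is drawn from it. Alternatives covered duplicates, shift, scaling, strands, peak edges, bin size, thresholds and windows. Counting and intervals used scipy 1.17.1 and numpy 2.4.6 in Python 3.11.15. Tables used pandas 2.3.3, and plots matplotlib 3.10.9.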

Additional observations from a re-analysis of the deposited data

How the results depend on the processing

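No paired analysis was possible because each group held 1 library and the labels carry no replicate numbers. Of 66 alternative values, 56 stayed within 1.5 times the value given (counts and lengths) or within its counting interval (folds and ratios), and 10 moved beyond it. Some outcomes were set by the change itself, so the tally does not measure stability. Scaling cannot alter the ratio of folds, a stricter fold cannot call more bins, and 80% of the excess cannot need a shorter stretch than 50%. The ratio of the broad folds, whose interval of 0.849 to 1.42 included 1, changed direction, from 1.10 to 0.874 with minus-strand reads only, and no fold whose interval lay above 1 fell below 1. Depth limits single bins, whose intervals are wide. Reads of a single strand are fewer, and called bins fell at both genes. With plus-strand reads only they fell from 31 to 21 at Lhx1 and from 37 to 20 at Lhx2. With minus-strand reads only they were 22 and 29. The Lhx2 fold within 5 kb was 1.07 with plus-strand reads only, while minus-strand reads only gave 2.20 there and 4.79 in the broad Lhx2 peak. The cause of this strand difference was not tested. At a fold of at least 4, 18 bins were called at Lhx1 and 22 at Lhx2. The stretch with 80% of the excess in place of 50% was 7.0 kb at Lhx1 and 9.5 kb at Lhx2. In the highest-scoring 25% of the peak list 1 member stayed in each window. Over the alternatives the fold of the broad peak ranged from 4.19 to 4.69 at Lhx1 and from 3.44 to 4.79 at Lhx2, and the ratio of folds from 0.874 to 1.36.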
